A study of Mus musculus with 5 samples.

Results

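Foxp3-positive T-like cells were chosen from the spleen libraries by the transcripts of single cells. A cell belonged to them if it held at least 1 UMI (unique molecular identifier, 1 counted mRNA molecule) of Cd3d, Cd3e or Cd3g, at least 1 of Foxp3, none of Cd8a or Cd8b1 and at most 1 of the B cell genes Cd79a, Cd79b and Ms4a1. Of 16271 cells that had 1000 UMIs or more, 500 genes or more and no more than 10% mitochondrial UMIs, 95 met this rule. They numbered 11 after saline, 8 after live allogeneic and 18 after live isogeneic cells, and 8 and 50 after apoptotic cells of allogeneic and isogeneic origin. The comparison class was 559 T-like cells with a Cd4 UMI and no Foxp3 UMI, under the same limits on Cd8a, Cd8b1 and B cell genes.

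All mice were C57/BL6, and their spleens were taken 48 h after the infusion. The agents were saline given intravenously, live or apoptotic Balbc splenic cells (allogeneic, of another strain) and live or apoptotic B6 splenic cells (isogeneic, of the same strain). Every spleen was enriched by magnets for CD45+ cells and, separately, for DCs, and both fractions were recombined in equal amounts, so that shares of the whole spleen cannot be read from these cells. Each infusion was measured in 1 library, so that differences between infusions have counting error but no replicate error. Ages and the number of mice per library are not given in the sources used here, and infused cells that had lodged in the spleen were not told apart from those of the host.

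Regulatory T cells restrain other lymphocytes and are kept in their state by the transcription factor Foxp3. They carry the high-affinity interleukin-2 receptor, whose signal runs through STAT5, and they hold CTLA-4, which removes costimulatory ligands from antigen-presenting cells. In the spleen they share the T cell zone with conventional CD4 T cells and dendritic cells, and they are followed in transplantation because they can limit responses to donor antigen. Type I interferons act on nearly all lymphocytes, through STAT2 and IRF9 among others, on a promoter element named ISRE.

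Among the genes of the type I interferon list, 31 of 43 members had a RefSeq promoter sequence in the table used here (build GRCm38.p6). Within the 250 bases before the start, 15 of these 31 (48.4%) held the ISRE core, GAAA followed by any 2 bases and GAAA again, on either strand and with overlapping matches allowed, against 2.98% of all 32851 such windows. Shown are the promoters of the 3 matching members that were past 1.5-fold higher in Foxp3-positive cells after live allogeneic than after live isogeneic cells, and that of Isg15, a member with 16 UMIs in the former library and 1 in the latter. They are written 5′ to 3′ on the strand of the gene. Capitals mark the bases of each match, which in Trim30a lies on the opposite strand, and a match in this window is a description of its letters only.
Bst2: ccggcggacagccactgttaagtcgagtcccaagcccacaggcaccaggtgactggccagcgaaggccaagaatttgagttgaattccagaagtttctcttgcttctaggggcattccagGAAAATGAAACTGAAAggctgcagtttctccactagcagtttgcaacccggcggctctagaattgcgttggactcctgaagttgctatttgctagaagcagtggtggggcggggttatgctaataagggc
Ifi206: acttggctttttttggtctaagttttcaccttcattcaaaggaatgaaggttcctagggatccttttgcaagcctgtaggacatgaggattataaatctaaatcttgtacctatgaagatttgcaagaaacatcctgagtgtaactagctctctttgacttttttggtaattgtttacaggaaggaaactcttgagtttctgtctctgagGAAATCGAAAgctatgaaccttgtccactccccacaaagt
Trim30a: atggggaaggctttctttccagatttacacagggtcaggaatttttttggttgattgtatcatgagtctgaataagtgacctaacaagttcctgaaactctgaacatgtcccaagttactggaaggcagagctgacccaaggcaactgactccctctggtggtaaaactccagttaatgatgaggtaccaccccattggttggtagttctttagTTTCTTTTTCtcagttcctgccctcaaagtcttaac
Isg15: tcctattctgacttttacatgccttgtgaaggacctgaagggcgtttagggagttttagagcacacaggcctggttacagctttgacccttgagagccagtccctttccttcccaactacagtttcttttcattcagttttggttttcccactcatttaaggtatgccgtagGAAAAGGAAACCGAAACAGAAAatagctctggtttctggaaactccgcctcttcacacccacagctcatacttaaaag
These windows lie at chr8:71537473-71537722 (minus strand), chr1:173491319-173491568 (minus strand), chr7:104465194-104465443 (minus strand) and chr4:156200819-156201068 (minus strand). The match of Bst2 nearest to its start began 124 bases before it, that of Ifi206 40, that of Trim30a 36 and that of Isg15 66 bases before it. The STAT motif TTCNNNGAA (both strands) was in 3 of 35 windows of genes higher in Foxp3-positive than in Foxp3-negative cells (8.57%), close to the 7.02% of all windows.

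Foxp3 chose the cells, and its levels are given as a description. Of 130 cells with a Foxp3 UMI, 12 had no Cd3 UMI, 11 had Cd3 together with Cd8 UMIs and 12 had more B cell UMIs than the limit. Among the 95 that remained, 51 held 1 Foxp3 UMI, 44 held 2 or more and 21 held 3 or more, up to 6. The cells just inside the rule are therefore the 51 with 1 UMI, and those just outside it are the T-like cells at 0. Levels below are CPM, the UMIs of a gene in the summed cells of a library relative to all their UMIs on the usual common scale. Foxp3 stood at 544 CPM after saline, 328 after live allogeneic, 428 after live isogeneic, 324 after apoptotic allogeneic and 556 after apoptotic isogeneic cells. Where 5 values follow each other in the text, they stand in this order of libraries. Cd4, whose UMIs were not asked of these cells, was found in 39 of the 95. In B cells, taken as cells with no Cd3 UMI and at least 3 UMIs of the B cell genes, 3 of 7431 held a Foxp3 UMI (0.0404%). No barcode of a Foxp3-positive cell was shared between libraries, while 33 barcodes of all cells were.

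The label of regulatory T cells was checked on Il2ra, Ctla4 and Ikzf2, which the rule did not use. Il2ra, the alpha chain of the interleukin-2 receptor, had a UMI in 50 of 95 Foxp3-positive cells (52.6%, exact Clopper-Pearson 95% interval 42.1 to 63.0%), in 16 of 559 Foxp3-negative cells (2.86%) and in 0.875% of B cells. Ctla4 was found in 36 of 95 (37.9%, interval 28.1 to 48.4%), in 4.11% and in 0.215% of these cells. Ikzf2, which encodes the transcription factor Helios, was found in 73 of 95 (76.8%, interval 67.1 to 84.9%), in 11.4% and in 0.296%. The median depth was 2706 UMIs in Foxp3-positive, 3283 in Foxp3-negative and 2511 in B cells, so the class with the higher shares was not the deepest. With every cell thinned to 1000 UMIs the shares of Foxp3-positive cells were 29.5% for Il2ra, 14.7% for Ctla4 and 63.2% for Ikzf2, and those of Foxp3-negative cells 1.07%, 1.43% and 6.08%. These shares carry counting error only.

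Only 6 of the 95 Foxp3-positive cells held none of these 3 markers, 31 held 1, 46 held 2 and 12 held all 3. Of the Foxp3-negative cells, 476 of 559 held none. The 6 cells without a marker were all among the 51 with 1 Foxp3 UMI, and the 44 cells with 2 or more Foxp3 UMIs each held at least 1 marker. Median depth was 2435 UMIs in the former and 3446.5 in the latter.

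Some cells within the rule carried markers of other cell types. After apoptotic allogeneic cells 1 Foxp3-positive cell of 12088 UMIs held 423 of the 434 UMIs of the list of 16 DC and MHC class II markers, and after apoptotic isogeneic cells 1 cell of 11849 UMIs held 772 of 942. After saline 1 cell of 10684 UMIs, which was 26.4% of all UMIs of that class, held 152 of 166 UMIs of CD8 T and NK cell markers and all 29 of monocyte markers. Of the 16 monocyte markers, 12 had no UMI in the Foxp3-positive cells of the saline library. Summed DC markers ranged from 198 to 8788 CPM over the 5 libraries in Foxp3-positive and from 168 to 3770 CPM in Foxp3-negative cells. Without the cell richest in them the sums in Foxp3-positive cells ranged from 67.3 to 1422 CPM. Summed B cell markers ranged from 445 to 1115 CPM in Foxp3-positive and from 157 to 639 CPM in Foxp3-negative cells. Both 1115 and 157 CPM were those of the live allogeneic library. Its 85 UMIs lay in 7 of 8 Foxp3-positive cells, with 36 in 1 cell and 10 or more in 3 cells. Of the 16 B cell markers, 14 had no UMI in these Foxp3-positive cells. The 7 markers of gamma-delta T cells were at 0 UMIs in all Foxp3-positive cells. A doublet caller marked 1 of the 95 cells and 0.0843% to 1.83% of all cells in a library, and its calls were not used to remove cells.

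Foxp3-positive cells were 9.57% to 21.1% of the 2 CD4-type classes, and the intervals of the 5 libraries overlapped. The share was 13.1% after saline (11 of 84, interval 6.72 to 22.2%), 21.1% after live allogeneic (8 of 38, 9.55 to 37.3%) and 9.57% after live isogeneic cells (18 of 188, 5.77 to 14.7%). It was 13.1% after apoptotic allogeneic (8 of 61, 5.84 to 24.2%) and 17.7% after apoptotic isogeneic cells (50 of 283, 13.4 to 22.6%). Since a Foxp3 UMI is found more easily in deeper cells, the rule was also read in cells thinned to 1000 UMIs. This gave 17.6%, 33.3%, 8.45%, 10.0% and 21.4% in the same order, where 33.3% was 4 of 12 cells. Thinning also removes Cd4 UMIs, which only the Foxp3-negative class had to hold. Over all libraries 45 of 263 cells were then Foxp3-positive, against 95 of 654 before. The thinned shares are therefore not shares corrected for depth. The highest share was that of the live allogeneic and the lowest that of the live isogeneic library in both readings. The intervals overlap, and with 1 library per infusion the differences were not tested. Asking Cd4 of the Foxp3-positive cells too gave 3.95%, 18.9%, 6.59%, 5.36% and 5.67%, so that the lowest share was then that of the saline library. The saline and apoptotic allogeneic shares then rested on 3 Foxp3-positive cells each. With at least 2 Foxp3 UMIs the shares were 7.59%, 16.7%, 6.08%, 7.02% and 6.80%. The live allogeneic share was the highest in these readings too.

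**Figure D1:**
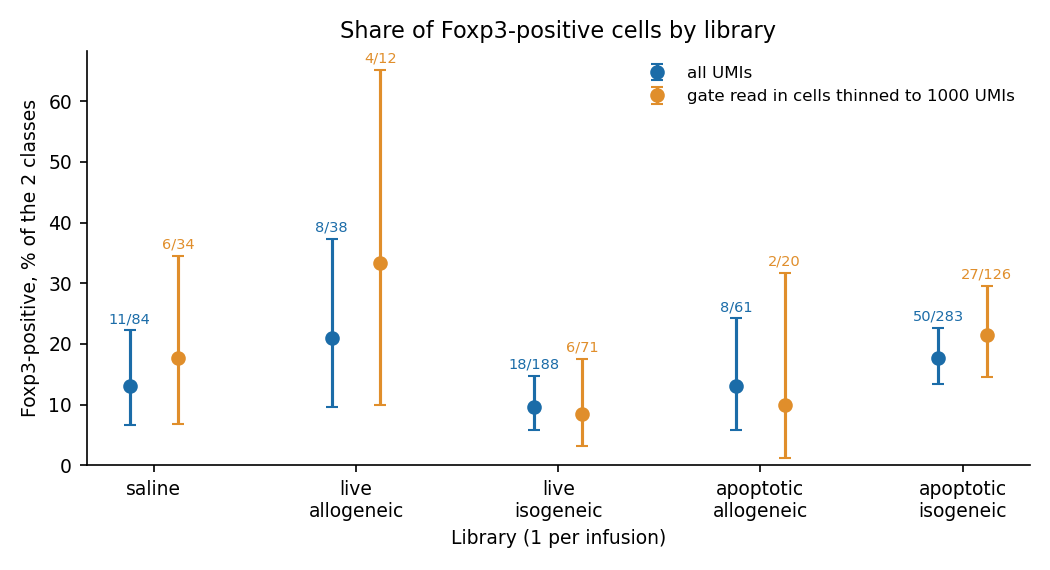
Share of Foxp3-positive cells among Foxp3-positive plus Foxp3-negative Cd4-positive T-like cells (y axis, percent) in the 5 libraries (x axis), with exact 95% intervals as bars and the cells behind each share above them. Blue points use all UMIs and orange points cells thinned to 1000 UMIs; the live isogeneic share, 9.57% and 8.45%, is the lowest in both and all intervals overlap.

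Next, genes were compared between Foxp3-positive and Foxp3-negative cells of the same libraries. Il2ra of the interleukin-2 receptor, TNF receptor family members and Ikaros family factors were higher in Foxp3-positive cells. Genes of resting T cells, among them Dapl1, Il7r, Lef1 and Tcf7, were lower. The summed depth was 40422 to 131407 UMIs per library in Foxp3-positive and 229411 to 802579 in Foxp3-negative cells. Sums per class were tested with edgeR's quasi-likelihood test with the library as a block and Benjamini-Hochberg adjustment, in the 3 libraries with at least 10 cells of both classes (saline, live isogeneic and apoptotic isogeneic). Of 3288 genes tested, 45 were higher (1.37%) and 91 lower (2.77%) at an adjusted p under 0.05. With the 8 cells each of the other two libraries added, 72 of 3682 genes were higher (1.96%) and 114 lower (3.10%). Leaving out the saline library gave 75 higher and 84 lower genes, and leaving out the apoptotic isogeneic one 32 and 68.

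**Figure D2:**
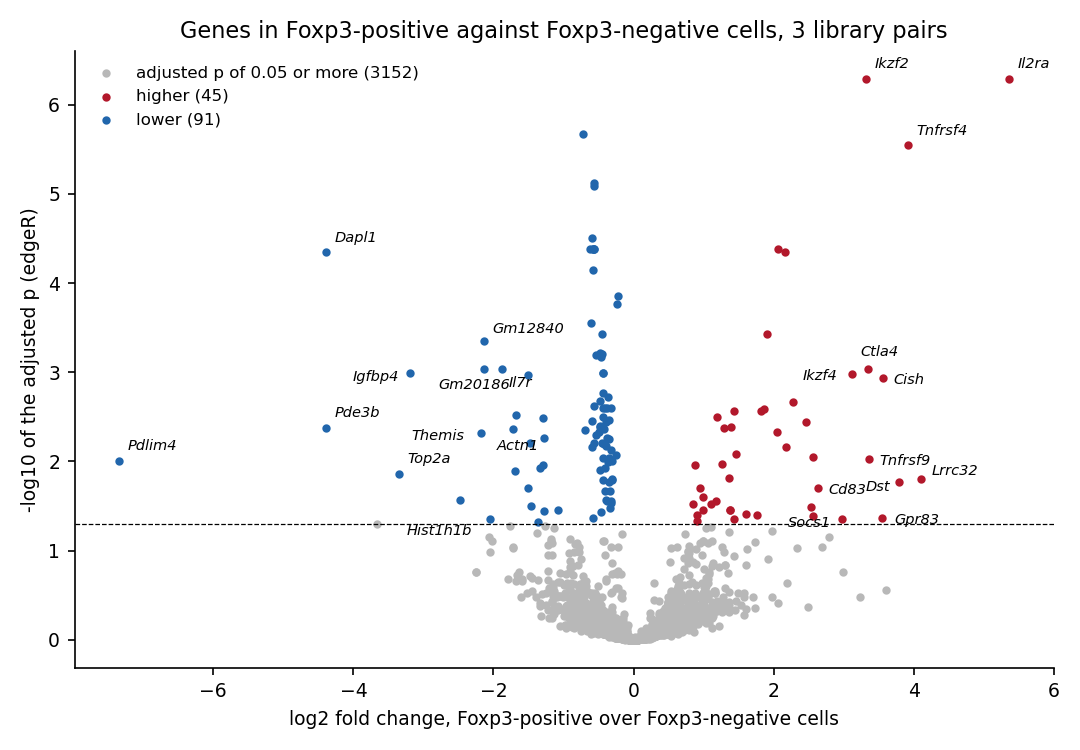
All 3288 genes tested: log2 fold change of Foxp3-positive over Foxp3-negative cells (x axis) and −log10 of the adjusted p of edgeR's test (y axis, the dashed line is 0.05), from 3 library pairs. The 45 higher genes are red and the 91 lower ones blue, with names for genes among the 12 highest and 12 lowest; Il2ra and Ikzf2 have the smallest adjusted p, and 60 of the 91 lower genes encode ribosomal proteins.

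Il2ra showed the highest log2 fold change. Its level was 717 CPM after saline, 341 after live allogeneic, 428 after live isogeneic, 547 after apoptotic allogeneic and 320 after apoptotic isogeneic cells. In Foxp3-negative cells it was 4.98 to 30.5 CPM, so that the classes did not overlap. The log2 fold change was 5.37 with a standard error (SE) of 0.35 (edgeR adjusted p = 5.12e-07), and Il2ra lies at chr2:11642807-11693193 of GRCm38. Il2rb, the beta chain shared with the interleukin-15 receptor, rose by 1.36 on the log2 scale (SE 0.30, edgeR adjusted p = 0.015). It stood at 0.50 with an edgeR adjusted p of 0.85 when Foxp3-positive cells too had to hold a Cd4 UMI, at 0.93 (adjusted p = 0.080) without the saline library and at 1.54 (adjusted p = 0.067) without the apoptotic isogeneic one. Il2rg, the common gamma chain, stood at 0.19 (SE 0.23, edgeR adjusted p = 0.82).

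Downstream of this receptor, Cish, an inhibitor induced by STAT5, was at 272, 131, 85.6, 142 and 114 CPM in Foxp3-positive cells of the 5 libraries. It was between 7.97 and 19.0 CPM in Foxp3-negative cells, below every Foxp3-positive value. The log2 fold change was 3.56 (SE 0.54, edgeR adjusted p = 0.0012). Socs1, another STAT-induced inhibitor, rose by 2.98 (SE 0.78, edgeR adjusted p = 0.044), yet had no UMI in the apoptotic allogeneic library and did not pass with all 5 libraries (edgeR adjusted p = 0.084). Pim1, a kinase gene under STAT5, rose by 1.29 (SE 0.24, edgeR adjusted p = 0.0042), against 0.91 with Cd4 asked of Foxp3-positive cells (adjusted p = 0.28) and 1.06 without the apoptotic isogeneic library (adjusted p = 0.12). In all, 5 of the 10 tested members of the list of 17 interleukin-2 receptor and STAT5 genes rose and none fell, with a median log2 fold change of 0.81 against −0.02 over all genes tested.

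The Ikaros family members Ikzf2 and Ikzf4 rose together. Ikzf2 was at 940, 905, 991, 952 and 1126 CPM in the 5 libraries. Foxp3-negative cells held 68.6 to 97.2 CPM, with no overlap. Ikzf2 lies at chr1:69531214-69687245 on the minus strand of GRCm38. The log2 fold change was 3.32 (SE 0.22, edgeR adjusted p = 5.12e-07). Ikzf4, which encodes Eos, a partner of Foxp3 in repression, rose by 3.13 (SE 0.47, edgeR adjusted p = 0.0010), from 15.2 ± 4.92 to 144 ± 19.2 CPM (SD, n = 3 libraries).

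Ctla4 was at 272 CPM after saline, 669 after live allogeneic, 159 after live isogeneic, 101 after apoptotic allogeneic and 137 after apoptotic isogeneic cells, and the live allogeneic library was the highest. Ctla4 lies at chr1:60887000-60915832 on the plus strand of GRCm38. Foxp3-negative cells held 3.72 to 26.2 CPM, all lower. The log2 fold change was 3.36 (SE 0.49, edgeR adjusted p = 0.00091), and 2.68 with an edgeR adjusted p of 0.12 among cells with at least 2 Foxp3 UMIs. Gpr83, an orphan receptor typical of regulatory T cells, varied between libraries: it was at 322 CPM after saline and 12.2 after live isogeneic cells, with a log2 fold change of 3.55 (SE 0.92, edgeR adjusted p = 0.043), and DESeq2 gave it an adjusted p of 0.61.

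Of the TNF receptor family, Tnfrsf4 (OX40), Tnfrsf9 (4-1BB) and Tnfrsf18 (GITR) rose. Tnfrsf4 was at 891, 827, 232, 1033 and 419 CPM in the same order of libraries and at 19.0 to 47.9 CPM in Foxp3-negative cells, with a log2 fold change of 3.93 (SE 0.31, edgeR adjusted p = 2.85e-06). After live allogeneic cells its 63 UMIs were in 2 of 8 cells, so that its level there rests on few cells. Tnfrsf9 rose by 3.37 (SE 0.69, edgeR adjusted p = 0.0094) and Tnfrsf18 by 1.86 (SE 0.32, edgeR adjusted p = 0.0026). With Nfkbia, the NF-kappaB inhibitor, at 1.27, 4 of the 11 tested genes of the list of TNF receptor and NF-kappaB genes rose and none fell. With Cd4 asked of Foxp3-positive cells too, Nfkbia stood at 0.08 (edgeR adjusted p = 0.99) and Tnfrsf18 at 1.05 (edgeR adjusted p = 0.62).

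Of the 22 genes of the list of regulatory T cell identity, 18 passed the filter on low counts, 16 of these rose and none fell, with a median log2 fold change of 2.91. Besides those above, Lrrc32, which encodes GARP, the anchor of latent TGF-beta, rose by 4.11 (SE 0.91, edgeR adjusted p = 0.016), from 3.67 ± 3.26 to 104 ± 47.9 CPM (SD, n = 3 libraries). Izumo1r (folate receptor 4) rose by 2.16 from 108 ± 34.7 to 561 ± 97.8 CPM (SD, n = 3 libraries), Nrp1 (neuropilin-1) by 2.46, Nt5e (CD73, which makes adenosine) by 2.17, Capg (an actin-capping protein) by 2.05, Ecm1 by 2.57 and Cd83 by 2.64. Ecm1 did not pass with all 5 libraries (edgeR adjusted p = 0.084) or without the saline library (0.079). Swap70 at 2.69 (SE 0.81) and Dusp4 at 3.23 (SE 1.38) did not pass, with edgeR adjusted p of 0.092 and 0.33. Tnfrsf1b, Itgae, Socs2 and Plagl1 had too few UMIs to be tested. The list was drawn from what is known of these cells, with earlier results of these data in view. Dst, a cytoskeletal linker that the list does not hold, rose by 3.79 (SE 0.85, edgeR adjusted p = 0.017).

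**Figure D3:**
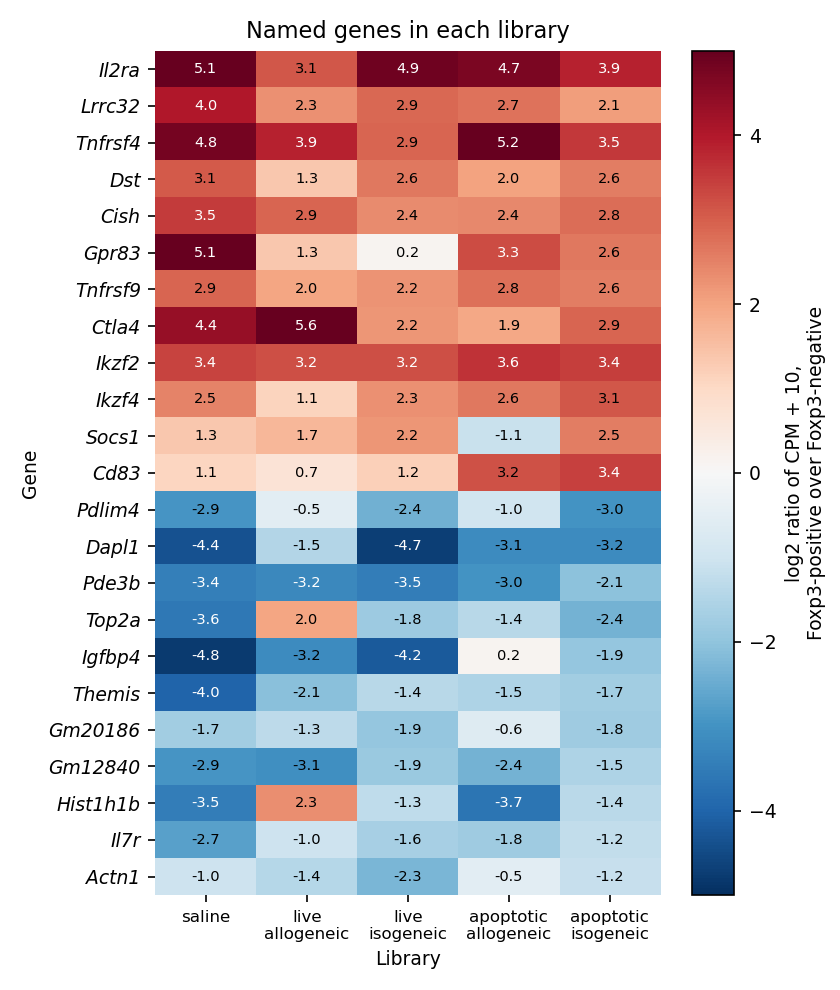
Log2 ratio of Foxp3-positive over Foxp3-negative cells (colour and printed values, CPM + 10) for genes among the 12 highest and 12 lowest (rows) in each library (columns). Ikzf2 lies between 3.2 and 3.6 in all 5 libraries, Socs1 is negative in the apoptotic allogeneic library, and Top2a and Hist1h1b are positive in the live allogeneic library alone, which with the apoptotic allogeneic one did not enter the fit.

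Genes of suppression other than receptors were mostly too sparse to test. Of the 17 suppressive effector genes 3 were tested: Nt5e and Lgals1 rose and Tgfb1, at −0.08 (SE 0.34), did not pass. Lgals1, which encodes galectin-1, rose by 0.84 (SE 0.21, edgeR adjusted p = 0.030), and by 0.34 with an edgeR adjusted p of 0.72 in cells thinned to 1000 UMIs. It did not pass without the live isogeneic (edgeR adjusted p = 0.096) or the apoptotic isogeneic library (edgeR adjusted p = 0.095) either. Il10 had 2 UMIs, in 1 of the 95 cells. Entpd1, which encodes CD39, was found in 10 of 95 Foxp3-positive cells (10.5%) and 9 of 559 Foxp3-negative cells (1.61%), and Gzmb in 2 of 95, with 14 of its 17 UMIs in 1 cell after live allogeneic cells.

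Effector-type genes rose in part. Of the 25 in that list 15 were tested, 4 rose (Icos, Maf, Ahnak and Vim) and none fell. Maf, a transcription factor of interleukin-10 producing T cells, rose by 1.90 (SE 0.25, edgeR adjusted p = 0.00038), and Icos, a costimulatory receptor, by 1.38 (SE 0.35, edgeR adjusted p = 0.035). Ahnak, which encodes a large scaffold protein, rose by 1.44, and Vim, the gene of vimentin, by 0.99. Icos and Vim did not pass without the live isogeneic library (edgeR adjusted p = 0.42 and 0.23) or without the apoptotic isogeneic one (0.11 and 0.064). S100a4, at 0.83, S100a6, at 0.54, and Crip1, at 0.43, did not pass. Klrg1, a mark of terminal effector cells, was found in 5 of 95 cells and Itgae (CD103) in 3 of 95. Summed, the list stood at 2845 CPM after saline and at 8306, 7549, 5730 and 5609 CPM in the libraries that follow in order, so the saline library was the lowest.

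Genes of resting and central-type T cells were lower in Foxp3-positive cells: 7 of the 13 tested fell and none rose. Dapl1 fell by 4.39 on the log2 scale (SE 0.47, edgeR adjusted p = 4.52e-05), from 268 ± 78.5 to 10.1 ± 17.6 CPM (SD, n = 3 libraries), and was found in 4 of 95 against 202 of 559 cells. Il7r, the interleukin-7 receptor, was at 99.0, 210, 147, 142 and 266 CPM in the 5 libraries and at 440 to 714 CPM in Foxp3-negative cells, with no overlap. It fell by 1.88 (SE 0.28, edgeR adjusted p = 0.00091). Tcf7 and Lef1, transcription factors of naive T cells, fell by 1.67 and 1.51, Satb1, a chromatin organizer, by 1.30, Ccr7, the receptor that leads to lymph nodes and the T cell zone, by 1.48 (a log2 change of −1.27 without the apoptotic isogeneic library, edgeR adjusted p = 0.15), and Igfbp4 by 3.18. Igfbp4 held 243 CPM after apoptotic allogeneic cells, 12 UMIs in 2 cells, which left it lower than in Foxp3-negative cells in 4 of 5 libraries.

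Of the list of genes known to be lower in regulatory T cells, which shares 6 genes with the preceding one, 8 of 9 tested genes fell and none rose. Pde3b, a phosphodiesterase that Foxp3 is known to repress, was found in 1 of 95 Foxp3-positive and in 139 of 559 Foxp3-negative cells. It fell by 4.39 (SE 0.80, edgeR adjusted p = 0.0042), and over all 5 libraries the ratio of sums was 0.0314 (exact Poisson interval 0.000791 to 0.177). Pdlim4 had no UMI in the Foxp3-positive cells of the 3 fitted libraries and 96 in the Foxp3-negative ones, which made it at least 4.78-fold lower against a floor of 3 counts over the class. Themis, needed for T cell receptor signals during selection, fell by 2.18 and Actn1, an actin crosslinker, by 1.72. Without the apoptotic isogeneic library Themis and Gm20186 did not pass (edgeR adjusted p = 0.067 and 0.052). In the 3 libraries the predicted genes Gm20186 and Gm12840 fell by 2.13 each. Cd40lg, at −1.66 (SE 0.59), did not pass. Il2, Ifng, Il4, Il17a and Il21 had too few UMIs to be tested.

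Of the 9 tested migration receptors and integrins Ccr7 alone fell, and DESeq2 called 0. In the list of T cell receptor early genes 1 of 11 tested rose (Nfkbia) and none fell. Of 24 tested type I interferon genes none passed edgeR's test in the 3 libraries, at a median log2 fold change of 0.12. At an unadjusted p under 0.05 there were 2 higher and 2 lower, DESeq2 called 1 higher, and with all 5 libraries 2 were higher and 1 lower. In the interferon-gamma list 1 of 17 tested rose (Socs1) and none fell. Of 14 tested cell cycle genes H2afz, a histone variant gene, rose by 0.87 (edgeR adjusted p = 0.070 without the live isogeneic library) and Top2a, a topoisomerase gene, fell by 3.35. In the live allogeneic library, which was not in that fit, 75% of the 76 Top2a UMIs lay in 1 Foxp3-positive cell. With all 5 libraries Top2a stood at −0.08 (edgeR adjusted p = 0.98), and the histone gene Hist1h1b moved from −2.05 to −0.42 (edgeR adjusted p = 0.86). In UMIs summed over the 5 libraries, the ratio of Foxp3-positive to Foxp3-negative cells was 2.08 for Top2a (1.59 to 2.71), opposite in direction to the fit on 3 libraries, and 1.22 for Hist1h1b (0.92 to 1.60). None of the heat shock and dissociation genes (19 tested, 2 higher at an unadjusted p under 0.05) passed edgeR's test. Of the markers of B cells, DCs, monocytes, CD8 T and NK cells 15 were tested and 0 passed, with 0 at an unadjusted p under 0.05, while 1 monocyte marker was higher with all 5 libraries. DESeq2 called 0 in either group.

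How far these calls rest on the rule was read by tightening it. Among cells with at least 2 Foxp3 UMIs, which left 2 libraries for the test, 15 genes were higher and 8 lower, and 15 of 40 named genes that could be tested kept their call. With Cd4 asked of Foxp3-positive cells too, in 2 libraries, 47 genes were higher and 58 lower. Without the cells that held more than 1 myeloid UMI 66 were higher and 104 lower, without those that held a B cell UMI 36 and 63, and without predicted doublets 50 and 94.

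Between infusions, the type I interferon list stood apart in Foxp3-positive cells after live allogeneic cells. Its summed level was 5170 CPM after saline (exact Poisson interval 4493 to 5921), 13634 after live allogeneic (12817 to 14489), 4967 after live isogeneic (4496 to 5475), 6297 after apoptotic allogeneic (5617 to 7037) and 7138 after apoptotic isogeneic cells (6689 to 7610). The live allogeneic library was the highest and its interval overlapped no other. The ratio of live allogeneic to live isogeneic sums was 2.74 (exact conditional Poisson interval 2.44 to 3.09), and to saline it was 2.64 (2.27 to 3.07). Asking Cd4 of the Foxp3-positive cells left that to saline at 5.70, and asking 2 Foxp3 UMIs at 1.58. For apoptotic cells the allogeneic to isogeneic ratio was 0.88 (0.77 to 1.00), with Cd4 asked 0.375 (0.29 to 0.48) and with at least 2 Foxp3 UMIs 0.685 (0.54 to 0.85). Asking Cd4 left 3 saline, 7 live allogeneic, 3 apoptotic allogeneic and 14 apoptotic isogeneic cells. Asking 2 Foxp3 UMIs left 6, 6, 4 and 17 cells of these libraries, so that these ratios rest on few cells. These intervals hold counting error only, and with 1 library per infusion no test across infusions was possible.

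Of 13 list members with at least 20 UMIs in both sums together, 11 were past 1.5-fold higher and none past 1.5-fold lower in live allogeneic over live isogeneic Foxp3-positive cells. Over all 1170 genes with as many UMIs, 27.0% were past 1.5-fold higher and 19.7% lower. The median log2 ratio of the 13 members (CPM + 10) was 1.19, against 0.11 for all genes. Against saline, which all 4 of these comparisons share, 7 of 11 members were past 1.5-fold higher after live allogeneic cells (background 29.0%), 0 of 6 after live isogeneic (20.4%), 1 of 5 after apoptotic allogeneic (16.1%) and 4 of 11 after apoptotic isogeneic cells (19.8%). In Foxp3-negative cells 2 of 29 were past it after apoptotic isogeneic cells over saline (10.4%), 2 of 32 after live isogeneic (17.3%) and 13 of 26 after live allogeneic cells (18.5%). Between live allogeneic and live isogeneic cells in this class 16 of 31 members were past 1.5-fold higher and 3 lower, where 17.4% and 27.6% of 5633 genes were, and the ratio of sums was 1.72 (1.62 to 1.83). The difference of this ratio between the classes was not tested. For apoptotic cells 4 of 14 members were past 1.5-fold higher and 4 lower in Foxp3-positive cells, against 14.1% and 19.6% of 1288 genes.

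Ifi27l2a, an interferon-induced gene of the mitochondrial and nuclear membranes, gave the largest part of the sum, 450 of 1039 UMIs after live allogeneic cells. It was at 1113 CPM after saline, 5905 after live allogeneic, 1542 after live isogeneic, 1316 after apoptotic allogeneic and 1948 after apoptotic isogeneic cells. All 8 live allogeneic cells held it, with 13 to 155 UMIs each, and the ratio to live isogeneic cells was 3.83 (3.14 to 4.71), beside 3.22 (2.86 to 3.62) in Foxp3-negative cells. Without Ifi27l2a the ratio of list sums was 2.26 (1.95 to 2.61), still above 1 over the rest of the list. Ly6a (Sca-1) had a ratio of 3.47 (1.98 to 6.38) and Ifi206, of the PYHIN family, one of 3.98 (1.68 to 10.9), with 65.4% of its UMIs in 1 cell. Ifi47, an immunity-related GTPase, had a ratio of 3.06 (1.24 to 8.58), Trim30a one of 2.91 (1.17 to 8.19), Ifi203 one of 2.41 (1.31 to 4.66) and Ly6e one of 1.61 (1.18 to 2.21). The intervals of Bst2 (1.93, 0.84 to 4.68), Parp14 (1.79) and Sp100 (1.55) included 1. Over saline, 7 of 11 measured members were past 1.5-fold higher after live allogeneic cells. Ifi47 (1.18), Ifi203 (1.19) and Ly6e (0.96) were not among them, and their intervals included 1. In Foxp3-negative cells the ratio of live allogeneic to live isogeneic cells was below 1 for Ly6e (0.82), Sp100 (0.63) and Parp14 (0.98). It was above 1 there for Ly6a, Ifi206, Ifi47, Trim30a, Ifi203 and Bst2.

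Isg15, at 12.2 CPM after live isogeneic and 210 after live allogeneic cells, had too few UMIs for the list count. It had 0 UMIs in the saline library, 2 after apoptotic allogeneic and 20 after apoptotic isogeneic cells. Foxp3-negative cells held 353 CPM of it after live allogeneic and 11.4 to 100 CPM in the other libraries.

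The UMIs of the list were found in all 8 cells of the live allogeneic library. With each cell thinned to 1000 UMIs, the 8 live allogeneic Foxp3-positive cells held 7 to 26 UMIs of the list with a median of 10.5. The 18 live isogeneic cells held 1 to 10 with a median of 4, the 11 saline cells 0 to 20 with a median of 5, the 8 apoptotic allogeneic cells 1 to 12 with a median of 5 and the 50 apoptotic isogeneic cells 1 to 21 with a median of 6. At least 3 such UMIs were found in 8 of 8 live allogeneic, 14 of 18 live isogeneic, 9 of 11 saline, 6 of 8 apoptotic allogeneic and 43 of 50 apoptotic isogeneic cells. The ranges overlap between libraries, and no live allogeneic cell was below 7. Foxp3-negative cells had medians of 8 after live allogeneic cells and of 3 in each other library. Without the cell that held most list UMIs the live allogeneic level was 13765 CPM. Read in the same way, the saline, live isogeneic, apoptotic allogeneic and apoptotic isogeneic levels were 4333, 4967, 4879 and 6530 CPM. The apoptotic allogeneic cell left out held 41.5% of that library's list UMIs and had 12088 UMIs, as did the one richest in DC markers. Summed DC markers in the live allogeneic library were 420 CPM and summed B cell markers 1115 CPM. A limit on myeloid genes, which left 5 of the 8 cells, gave an interferon ratio to live isogeneic cells of 3.18.

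**Figure D4:**
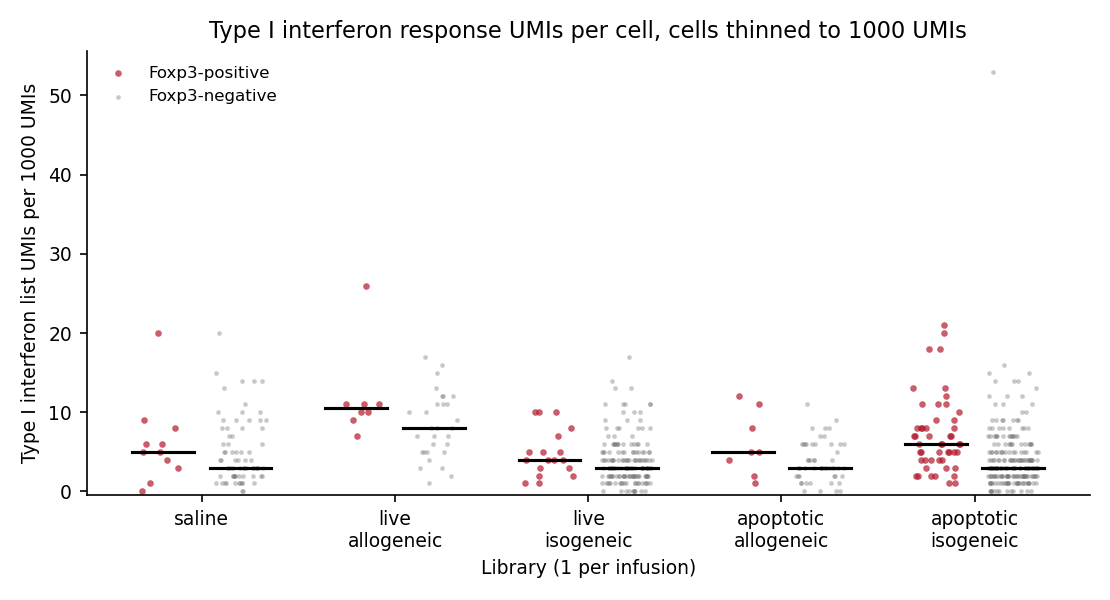
UMIs of the type I interferon list per 1000 UMIs of a cell (y axis) in the 5 libraries (x axis), 1 point per cell after thinning and black lines at the medians. Red Foxp3-positive cells of the live allogeneic library lie between 7 and 26 with a median of 10.5, the red medians of the other libraries lie between 4 and 6, and grey points are Foxp3-negative cells.

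The interferon-gamma list was higher after live allogeneic than live isogeneic cells as well, at 6102 against 2997 CPM, a ratio of 2.04 (1.74 to 2.39), with 10 of 11 measured members past 1.5-fold higher and none lower (background 27.0% and 19.7%). Among these members were Gbp4 and Gbp7, guanylate-binding proteins, Igtp and Iigp1, immunity-related GTPases, Psmb8, Psmb9, Psmb10 and Psme2 of the immunoproteasome, and Tap1, the peptide transporter. For apoptotic cells the ratio was 0.85 (0.70 to 1.02). Foxp3-negative cells held 3893 CPM of this list after live allogeneic and 2412 CPM after live isogeneic cells.

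The identity list differed less between infusions: its sum was 6086 CPM after saline, 4986 after live allogeneic, 3634 after live isogeneic, 4718 after apoptotic allogeneic and 4406 after apoptotic isogeneic cells, and 461 to 634 CPM in Foxp3-negative cells. Live allogeneic over live isogeneic gave a ratio of 1.37 (1.18 to 1.60). Of 9 measured members 5 were past 1.5-fold higher (Ctla4, Tnfrsf18, Tnfrsf4, Il2rb and Capg) and 0 lower, against 27.0% and 19.7% of all genes. For apoptotic cells the ratio was 1.07 (0.92 to 1.25). Resting-type genes were lower after live allogeneic than live isogeneic cells, with a ratio of 0.63 (0.50 to 0.79). Of 7 measured members 4 were past 1.5-fold lower (Tcf7, Klf2, Satb1 and Foxp1) and 1 past 1.5-fold higher (Bcl2), against 19.7% and 27.0% of all genes. T cell receptor early genes, with 3 of 6 (Cd69, Jun and Junb) past 1.5-fold lower, had a ratio of 0.57 (0.45 to 0.71), and migration genes, with 4 of 7 (Itga4, Itgb1, Itgb2 and Itgal) past 1.5-fold lower, one of 0.57 (0.46 to 0.70). In both lists the live isogeneic library was the highest of the 5. The T cell receptor early list summed to 1781, 1548, 2741, 2025 and 1712 CPM, and live allogeneic over saline gave 0.87 (0.64 to 1.18). The migration list summed to 3193 CPM after live isogeneic cells and to 1762 to 2424 CPM in the other 4 libraries. Foxp3-negative cells went the same way between live allogeneic and live isogeneic cells. The resting list stood at 3566 and 4522 CPM there and the migration list at 1430 and 2313 CPM. The T cell receptor early list stood at 1434 and 1990 CPM in that class, and the difference between the classes was not tested. For apoptotic cells the TNF receptor and NF-kappaB list had a ratio of 1.57 (1.30 to 1.88), with Tnfrsf4, Tnfrsf9, Nfkb1, Rel and Nfkbia past 1.5-fold higher. Over all 1288 genes measured in these cells, 14.1% were past 1.5-fold higher and 19.6% lower. The TNF receptor and NF-kappaB list summed to 3847 CPM after apoptotic allogeneic and 2458 CPM after apoptotic isogeneic cells. In Foxp3-negative cells it stood at 842 and 924 CPM, and the difference between the classes was not tested.

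Cell cycle UMIs of the live libraries lay in large part in single cells. The list summed to 11403 CPM after live allogeneic and 5506 after live isogeneic cells, a ratio of 2.07 (1.85 to 2.33). A single cell held 60.9% of the UMIs in the first and 1 cell 72.9% in the second. Without these cells the sums were 6083 and 1746 CPM, so the live allogeneic library stayed higher. With the limit on myeloid genes, which took 3 of the 8 live allogeneic cells, the ratio was 0.33. In the apoptotic allogeneic and apoptotic isogeneic libraries the richest cell held 23.6% and 14.7% of the UMIs. Mki67, the proliferation marker Ki-67, was found in 3 of 8 cells after live allogeneic, 1 of 18 after live isogeneic, 1 of 8 after apoptotic allogeneic, 4 of 50 after apoptotic isogeneic cells and in 0 of 11 after saline. In all, 9 of 95 Foxp3-positive (9.47%) and 28 of 559 Foxp3-negative cells (5.01%) held it.

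The genes with the highest ratio of live allogeneic to live isogeneic Foxp3-positive cells were Top2a, Hist1h2ae, Hist1h1b, Lig1 and Hist1h1e, all of DNA replication or chromosome packing, with ratios of 40.8 to 6.97. A single cell held 55.9% to 98.2% of the live allogeneic UMIs of each. The lowest were Lars2, St8sia4, Gm42418, Pdcd4 and Txnip, with ratios of 0.17 to 0.26. Lars2 and Gm42418 were found in all 26 cells, and in Foxp3-negative cells their ratios were 0.22 and 0.18. The live isogeneic library stood apart in both: Gm42418 was at 76135 CPM there and at 14345 to 20880 CPM in the other 4 libraries, and Lars2 at 3083 against 538 to 866 CPM. Pdcd4, a translation inhibitor, and Txnip, a brake on glucose uptake, had ratios of 0.56 and 0.45 in Foxp3-negative cells.

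For apoptotic cells the highest allogeneic to isogeneic ratios were those of Apoe, Ifitm3, Cybb, Gm47283 and Ifi30. In Apoe, Ifitm3, Cybb and Ifi30, which myeloid cells express strongly, 81.1% to 97.4% of the apoptotic allogeneic UMIs lay in 1 cell. The lowest were Id2, Pycard, Cxcl9, Arid4a and Cops9. Id2 had no UMI in the 8 apoptotic allogeneic cells and 43 in the apoptotic isogeneic cells, at least 5.39-fold lower against a floor of 3 counts in the library, but 69.8% of these 43 were in 1 cell. All 92 Cxcl9 UMIs of the apoptotic isogeneic library were in 1 cell. Pycard, the inflammasome adaptor ASC, was spread over 20 of 50 apoptotic isogeneic cells with 35 UMIs and had 1 UMI after apoptotic allogeneic cells, a ratio of 0.076 (0.0019 to 0.45), beside 0.87 in Foxp3-negative cells.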

How the data were processed

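The 5 libraries were analysed, 1 per infusion, so that differences between infusions were given with counting error and no test. The submitters' processing notes name Cell Ranger 4.0 and the mm10 genome for the deposited UMI count matrices. The files of 4 libraries held all 6794880 barcodes and that of the apoptotic allogeneic library 2491, with 12742889 to 32641733 UMIs per library. Median depth of the cells kept was 2298 to 4984.5 UMIs.

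The members, gene lists and tests were chosen with earlier results of these data known. UMIs were summed per library and class and tested with edgeR 4.0.16 in R 4.3.3 (TMM, filterByExpr, quasi-likelihood test, library as a block, Benjamini-Hochberg adjustment over all genes tested). A library needed 10 cells in each class, which 3 of 5 met. Genes of the rule were left out of the tests. The SE is the absolute log2 fold change divided by the square root of the F statistic, and the residual degrees of freedom were 2. Each p weighs the class difference within libraries against its spread over the 3 libraries, which are of different infusions. The test estimates this spread with information shared over all genes, so that p does not rest on these 2 degrees of freedom alone. Named genes were the 12 highest and 12 lowest fold changes past an adjusted p of 0.05 with 1 direction in every fitted library and a mean of at least 50 CPM, and between infusions the 5 highest and 5 lowest ratios with at least 30 UMIs, besides list members; some genes and a planned test are not reported here. List members needed 20 UMIs in 2 sums for an infusion ratio, with past 1.5-fold counted as higher or lower. On simulated data of 3242 genes for this comparison the test called 100% of genes raised 8-fold, 20.8% of genes raised 2-fold and 0.0326% of unchanged genes. It called 88.9% of genes lowered 8-fold and 29.3% of genes lowered 2-fold. The simulated counts came from 1 shared profile with a fixed spread, without differences between libraries or UMIs gathered in single cells. These rates therefore need not hold for the real sums. Intervals are exact at 95% and cover counting error only. Promoters came from RefSeq (GRCm38.p6), and gene coordinates from the GRCm38 annotation. DESeq2 1.42.0, other filters, cell rules, thinning and left-out libraries were the alternatives.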

Additional observations from a re-analysis of the deposited data

Results flagged for a closer look

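The summed heat shock and dissociation list of Foxp3-positive cells differed in opposite ways between the live and apoptotic infusions. Allogeneic over isogeneic cells gave a ratio of 0.786 (exact conditional Poisson interval 0.702 to 0.881) for live and 1.26 (1.12 to 1.42) for apoptotic cells, and the difference between them was not tested. The levels were 6955 and 8846 CPM for live allogeneic and live isogeneic cells, and 8099 and 6415 CPM for the apoptotic ones. After live cells Jun, Junb, Jund, Btg1, Btg2 and Klf6 were past 1.5-fold lower and the chaperone genes Hspa8 and Hspd1 higher. These were 6 and 2 of 13 measured members, where 19.7% of 1170 genes were lower and 27.0% higher. After apoptotic cells Dnaja1, Jun, Junb and Dusp1 were past 1.5-fold higher and Hspe1 and Hspd1 lower. Over all 1288 genes measured for apoptotic cells, 14.1% were past 1.5-fold higher and 19.6% lower. In Foxp3-negative cells the ratios were 1.21 and 1.39. With at least 2 Foxp3 UMIs asked, the live ratio was 1.05.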

How the results depend on the processing

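Infusions could not be paired because each had 1 library. Both classes of cells came from the same libraries, and the fit paired them by carrying the library as a block. Asking Cd4 of Foxp3-positive cells gave shares of 3.95% after saline, 5.36% after apoptotic allogeneic and 5.67% after apoptotic isogeneic cells, and asking 2 Foxp3 UMIs gave 6.80% in the last. The count of higher genes was 15 with at least 2 Foxp3 UMIs (2 libraries) and 72 with all 5 libraries, an alternative chosen after seeing the data, and 32 to 75 with each fitted library left out. The count of lower genes was 146 with no filter on low counts, 47 with DESeq2, 14 with no library block, 8 with at least 2 Foxp3 UMIs, 58 with Cd4 asked (2 libraries) and 68 to 84 with each fitted library left out. Of the single values of named genes that passed the test in the fit on 3 libraries, 466 kept direction and call in these alternatives, 97 lost the call and 0 reversed; the causes were not tested. The type I interferon ratio of live allogeneic to live isogeneic cells was 2.43 in thinned cells, 3.18 under the myeloid limit and 2.26 without Ifi27l2a. That to saline was 1.95 in thinned cells, 5.70 with Cd4 asked, 1.58 with at least 2 Foxp3 UMIs, 2.11 without the deepest cell of each library and 1.90 without Ifi27l2a. The last 2 settings were chosen after seeing the data. The apoptotic ratio was 0.375 with Cd4 asked and 0.685 with at least 2 Foxp3 UMIs, from 3 and 4 apoptotic allogeneic cells. The ratio to saline with Cd4 asked rested on 3 saline cells. Values that reversed were the cell cycle ratio of live cells under the myeloid limit (0.334), their heat shock ratio with at least 2 Foxp3 UMIs (1.05), the median log2 ratio of the identity list for apoptotic cells with at least 10 UMIs per gene (−0.24) and, with Cd4 asked, the apoptotic ratios of Ifitm3 (0.994) and Cybb (0.497). Fits that leave out a library outside the main fit were not run. Alternatives in which a gene had 0 UMIs gave no value. Depth limits the shares, which rest on 8 to 50 Foxp3-positive cells per library, and on 3 to 14 with Cd4 asked.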

Other observations

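Ribosomal protein genes, a group chosen after its values were seen, were lower in Foxp3-positive than in Foxp3-negative cells. Of 81 tested, 60 fell and none rose by edgeR's test, with a median log2 fold change of −0.40. The summed level was 247553 to 311505 CPM in Foxp3-positive and 287269 to 380316 CPM in Foxp3-negative cells, and lower in the former in each of the 5 libraries. With DESeq2 33 fell, with Cd4 asked of Foxp3-positive cells 36, and with at least 2 Foxp3 UMIs 0, at a median of −0.47.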
